A study of Mus musculus with 16 samples.

Results

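RNA-seq expression values were compared between 4 libraries of mouse pre-B cells that carry the BCR-ABL1 fusion kinase and 4 libraries of pre-B cells that do not, all wild type for SHP2. The labels write the genotypes as BCR-ABL WT (+/+) with SHP2 WT (+/+), and BCR-ABL NULL (-/-) with SHP2 WT (+/+). These 8 libraries are part of a series of 16, whose other 8 hold the same pair of genotypes in SHP2-null cells, written SHP2 NULL (-/-). Of 23279 gene symbols, 9972 reached 1 FPKM (fragments per kilobase, set against all fragments mapped in that library) in at least 4 of the 8 SHP2 wild-type libraries and were tested. How the fusion was introduced, the age and strain of the mice, any treatment and the origin of the replicates are not given in the sources used. Replicates may come from 1 animal or culture, and the p-values then measure only technical spread.

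BCR-ABL1 joins the BCR gene to the ABL1 tyrosine kinase, which leaves the kinase constantly active, and in pre-B cells it drives acute lymphoblastic leukaemia. It signals through RAS and ERK, through STAT5 and through PI3K. SHP2, encoded by Ptpn11, is a tyrosine phosphatase that helps to carry signals to RAS, and the series asks what the fusion requires of it. Normal pre-B cells depend on interleukin-7, whose receptor activates JAK kinases and STAT5, and on the pre-B cell receptor, which is built around surrogate light chains. ERK activity is read in many cells from the genes it induces as its own brakes, the DUSP phosphatases, Sprouty proteins and SPRED proteins.

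Depth is unknown, because no counts were given. Over the 8 libraries FPKM summed to 353202 to 443702, and each had 9829 to 9958 genes at 1 FPKM or more. All 13 listed pre-B cell markers were detected in all 8 libraries, the lowest value being 1.90 FPKM for Rag2. Within each group, libraries also differed among themselves. The RNase P RNA Rpph1 stood at 3047, 5659, 16290 and 5223 FPKM with BCR-ABL1 and at 2028, 7123, 7253 and 10030 FPKM without it. Markers of myeloid cells summed to 7.89, 6.72, 16.7 and 29.6 FPKM with BCR-ABL1 and to 10.2, 10.6, 33.5 and 16.2 FPKM without it (16 genes, C1qa at 0 in all 8). Markers of T and NK cells summed to 30.8 to 34.3 FPKM with BCR-ABL1 and to 21.96 to 34.8 FPKM without it, with 14 of 15 genes below 1 FPKM in every library. The part of these differences in the results was not tested.

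Abl1 and Bcr, the genes that the fusion is made from, did not separate the groups. Abl1 stood at 14.9, 18.5, 14.2 and 13.7 FPKM with BCR-ABL1 and at 15.3, 16.6, 16.7 and 16.4 FPKM without it. The difference in means was -0.92 FPKM (exact two-sided permutation test, p = 0.486). Bcr stood at 6.12, 8.17, 5.73 and 7.49 FPKM with BCR-ABL1 and at 8.12, 8.46, 10.7 and 8.99 FPKM without it, a difference of -2.19 FPKM (exact permutation p = 0.0571). These values do not separate reads of the fusion from reads of the normal genes, so neither checks the label. Ptpn11, wild type in both groups, averaged 17.01 ± 0.957 FPKM with BCR-ABL1 and 16.75 ± 0.647 FPKM without it (SD, n = 4 each), and the groups overlapped (exact permutation p = 0.657). The smallest p that 4 against 4 libraries allows is 0.0286.

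Of the 9972 genes, 442 differed with BCR-ABL1 at an adjusted p below 0.05, which is 4.43% of those tested. There were 272 higher (2.73%) and 170 lower (1.7%), and 61 of the 442 differed at least 2-fold on the log2(FPKM + 1) scale, 25 higher and 36 lower. Every log2 change below is on that scale, which understates the change of genes near 1 FPKM. The median log2 change of all genes was 0.03, and the changes are relative to the libraries' own FPKM scaling. After median-ratio scaling 215 genes were higher and 203 lower (51.4% higher, against 61.5% before it), and quantile normalization gave 219 higher and 198 lower. The groups did not overlap in 420 of the 442 genes, against 1142 of all genes tested (11.5%, of which 7.41% higher and 4.04% lower). A call was kept without each of the 8 libraries in turn by 189 genes, 102 higher and 87 lower, which is 1.9% of the genes tested. The count fell to 233 without replicate 0, 276 without replicate 2 and 286 without replicate 3 with BCR-ABL1, and to 216 without replicate 2 and 276 without replicate 3 of the cells lacking it. The filter admitted 24 genes through the BCR-ABL1 libraries alone and 34 through the libraries without it alone, and 45 of these were called. In bulk RNA, fewer cells of a type and less RNA per cell cannot be told apart.

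**Figure D1:**
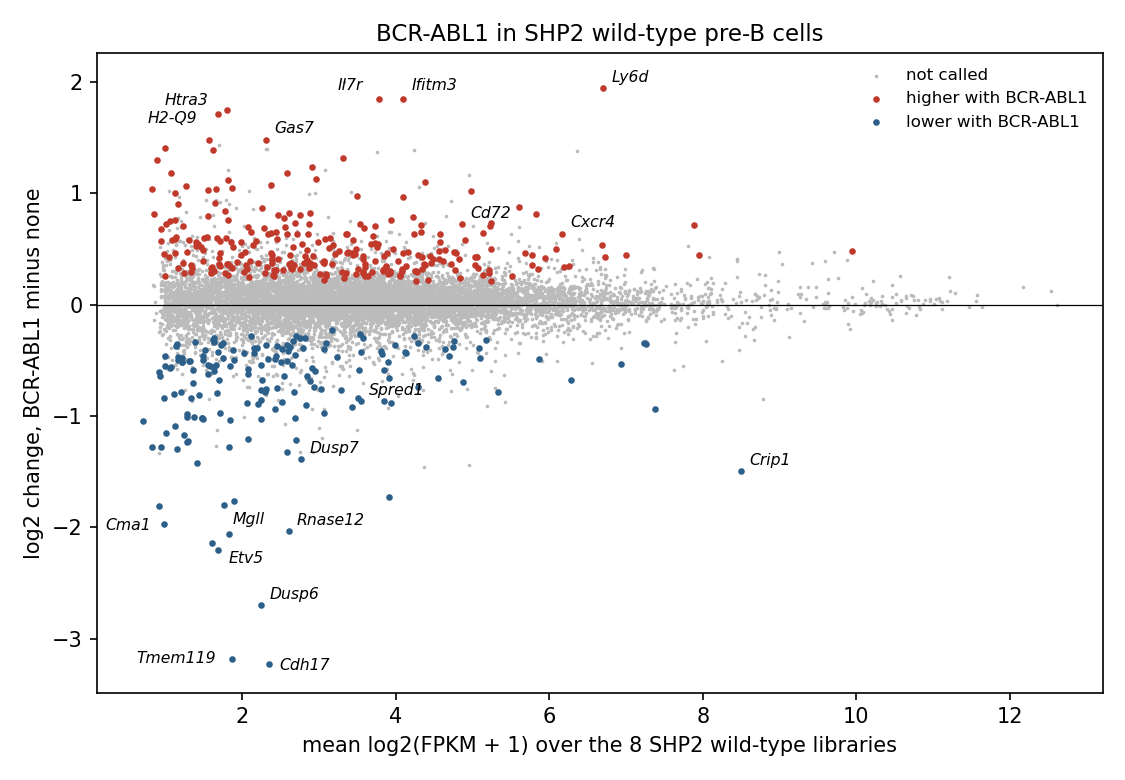
Log2 change with BCR-ABL1 (BCR-ABL1 minus none, vertical) against mean log2(FPKM + 1) over the 8 SHP2 wild-type libraries (horizontal) for 9972 genes, grey where not called, red for the 272 called higher and blue for the 170 called lower. The largest falls, such as Cdh17 and Tmem119 near -3.2, exceed the largest rises, such as Ly6d at 1.95.

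Most of the tested brakes of ERK signalling fell with BCR-ABL1. Of 13 listed ERK feedback regulators, 8 passed the filter, and the other 5 stayed at or below 0.768 FPKM in every library. Of the 8 tested, 7 were called lower and none higher, where 1.7% of all genes tested were lower. Their median log2 change was -0.68, against 0.03 for all genes. The list was chosen with earlier results of these data known, so its share is a description. Dusp6, the phosphatase that removes phosphate from ERK itself, stood at 0.710, 0.888, 0.786 and 1.11 FPKM with BCR-ABL1 and at 10.1, 9.03, 14.8 and 11.2 FPKM without it. All 4 BCR-ABL1 libraries lay far below the other 4, at 7.72% of their mean (log2 change -2.70 ± 0.24, SE, adjusted p = 1.23e-05). Dusp7, a second ERK phosphatase, stood at 2.96, 3.13, 3.14 and 3.71 FPKM with BCR-ABL1 and at 8.74, 10.1, 10.9 and 10.4 FPKM without it (log2 change -1.38 ± 0.16, adjusted p = 0.000103). Spred2, which blocks RAF activation, stood at 0.241, 0.543, 0.246 and 0.396 FPKM with BCR-ABL1 and at 1.58, 1.81, 2.43 and 2.300 FPKM without it (log2 change -1.16 ± 0.10, adjusted p = 1.17e-05). It passed the filter through the libraries without BCR-ABL1 alone, and its log2 change was -2.26 with 0.1 added instead of 1. Its relative Spred1, which recruits the RAS inhibitor neurofibromin to the membrane, was higher in level and fell to 8.44, 7.52, 6.996 and 7.74 FPKM with BCR-ABL1, against 17.8, 13.9, 14.9 and 12.8 FPKM without it (log2 change -0.86 ± 0.16, adjusted p = 0.00530). The groups did not overlap in any of these 4 genes (4.04% of all genes tested lay lower without overlap), and each call held without each of the 8 libraries.

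The other 3 called members of the list fell by less, and the 1 tested member that was not called had a positive log2 change. Spry1, a Sprouty inhibitor of receptor signalling to RAS, averaged 1.37 ± 0.137 FPKM with BCR-ABL1 and 2.35 ± 0.374 FPKM without it (SD, n = 4 each; log2 change -0.49 ± 0.12, adjusted p = 0.0283). Its call was kept only without replicate 0 of the cells lacking BCR-ABL1 and was lost without any of the other 7 libraries (adjusted p 0.0515 to 0.0938). Spry2 averaged 0.967 ± 0.0957 FPKM with BCR-ABL1 and 1.52 ± 0.276 FPKM without it (log2 change -0.35 ± 0.08, adjusted p = 0.0227), and its call was lost without replicates 0 or 3 with BCR-ABL1 or replicates 1 or 3 without it (adjusted p 0.0622 to 0.0793). Rasa2, a GTPase-activating protein that switches RAS off, averaged 3.64 ± 0.428 FPKM with BCR-ABL1 and 5.39 ± 0.544 FPKM without it (log2 change -0.46 ± 0.10, adjusted p = 0.0196). That call was lost without replicate 2 with BCR-ABL1 or replicates 0 or 2 without it (adjusted p 0.0515 to 0.0677). The groups did not overlap in any of the 3, nor in 420 of all 442 called genes. Of all genes tested, 4.04% lay lower without overlap.

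The stretch around the transcription start of the feedback genes was searched for 3 motifs, because 7 of them fell. The RefSeq table of GRCm38.p6 gave 10 windows of 300 bases, from 250 before to 50 after the start, for 9 called members of the ERK lists, including Nr4a1, which rose. The motifs were TTCNNNGAA, the STAT site, CCGGAAGT, the ETS site, and TGACGTCA, the CREB site, read on both strands. None of the 10 windows held a match. Of 32851 windows in the table, 8.30%, 3.89% and 1.79% held the STAT, ETS and CREB letters, as did 6.95%, 9.23% and 3.30% of 9512 windows of tested genes. The windows of Dusp6 (chr10:99262981-99263280, plus strand) and Spred2 (chr11:19924192-19924491, plus strand) are shown for the feedback genes with the smallest adjusted p, and no letters are in capitals because no motif was found.
Dusp6: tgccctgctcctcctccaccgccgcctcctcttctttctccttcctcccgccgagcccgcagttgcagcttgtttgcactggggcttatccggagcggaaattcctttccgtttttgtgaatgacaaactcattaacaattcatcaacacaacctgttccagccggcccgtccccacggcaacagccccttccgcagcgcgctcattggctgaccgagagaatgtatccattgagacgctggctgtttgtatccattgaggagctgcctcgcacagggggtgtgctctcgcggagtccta
Spred2: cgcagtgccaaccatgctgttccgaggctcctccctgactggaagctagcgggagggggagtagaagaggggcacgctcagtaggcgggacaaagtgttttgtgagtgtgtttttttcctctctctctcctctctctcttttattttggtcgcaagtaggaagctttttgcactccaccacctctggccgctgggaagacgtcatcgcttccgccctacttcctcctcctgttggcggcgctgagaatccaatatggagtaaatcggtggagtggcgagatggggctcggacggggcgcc
A window without a match says only that these letters are not in it.

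**Figure D2:**
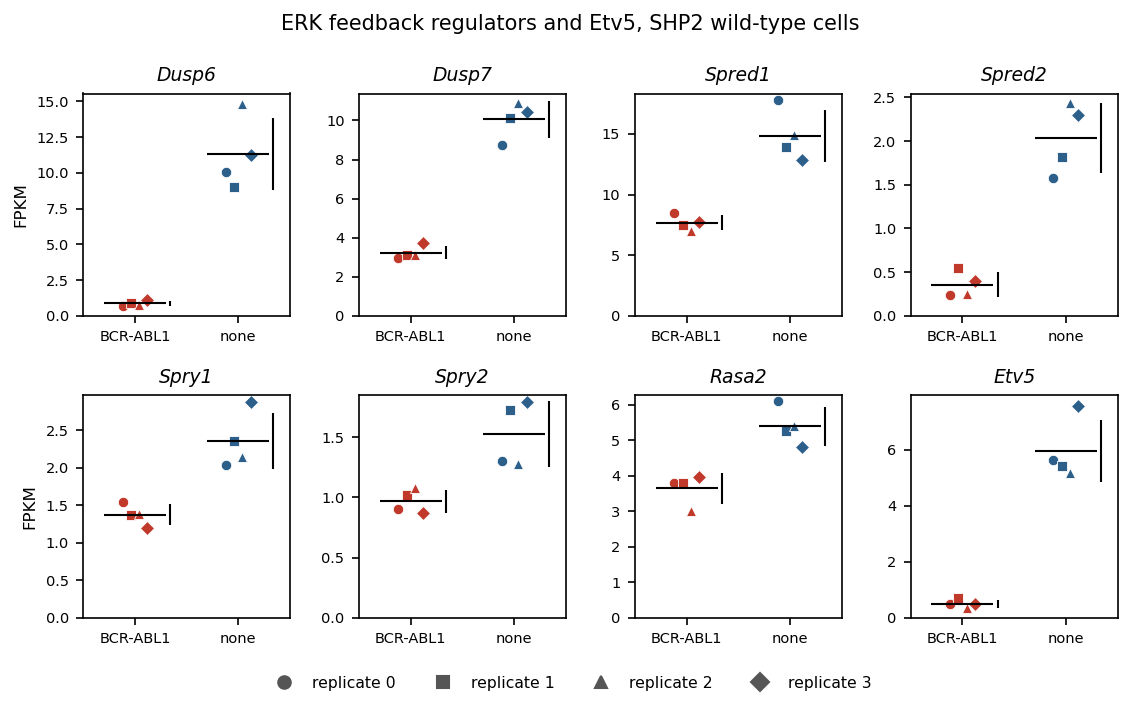
FPKM of the 7 called ERK feedback regulators and Etv5 in each library, BCR-ABL1 (red, left) and none (blue, right), all SHP2 wild type; the marker shape is the replicate number, the horizontal line the mean and the vertical bar 1 SD (n = 4). In each of the 8 panels the 4 BCR-ABL1 libraries lie below the 4 without it (as in 4.04% of all genes tested), most widely in Dusp6 and Etv5.

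Among the transcription factors that respond to ERK, Etv5 fell and Nr4a1 rose. Of 20 listed, 7 passed the filter, 1 was higher and 1 lower (2.73% and 1.7% of all genes were), and the median log2 change was 0.18. Etv5, an ETS factor induced by ERK, stood at 0.483, 0.695, 0.339 and 0.476 FPKM with BCR-ABL1 and at 5.62, 5.42, 5.18 and 7.58 FPKM without it. It passed the filter through the libraries without BCR-ABL1 alone. With BCR-ABL1 it was at 8.37% of the mean without it (log2 change -2.21 ± 0.26, adjusted p = 9.93e-05, and -3.35 with 0.1 added instead of 1). Nr4a1, an orphan nuclear receptor that antigen-receptor signals induce in lymphocytes, had the opposite direction. It stood at 1.34, 1.48, 2.20 and 1.72 FPKM with BCR-ABL1 and at 0.804, 1.01, 0.491 and 0.825 FPKM without it (log2 change 0.59 ± 0.11, adjusted p = 0.00499, and 1.03 with 0.1 added). Neither pair of groups overlapped (11.5% of all genes tested did not), and both calls held without each library. The immediate-early members of the list were mostly too low to test, with 13 at or below 0.833 FPKM in every library.

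In the pathway upstream of ERK, 3 of 31 tested genes for SHP2, GAB, GRB2 and RAS components were called, 9.68% against 4.43% of all genes, with a median log2 change of 0.03. Gab3, a docking adaptor of the GAB family that binds SHP2, stood at 1.32, 1.00, 1.37 and 1.58 FPKM with BCR-ABL1 and at 0.634, 0.706, 0.636 and 0.766 FPKM without it (log2 change 0.46 ± 0.08, adjusted p = 0.00336, and 0.84 with 0.1 added). It passed the filter through the BCR-ABL1 libraries alone. Nf1, which encodes neurofibromin and turns RAS off, fell to 1.47, 1.64, 1.45 and 1.64 FPKM with BCR-ABL1, against 2.42, 2.24, 3.45 and 3.05 FPKM without it (log2 change -0.56 ± 0.11, adjusted p = 0.00687). Both calls held without each library. Dok3, an inhibitory adaptor of B cell receptor signalling, averaged 16.2 ± 2.78 FPKM with BCR-ABL1 and 9.59 ± 2.19 FPKM without it (adjusted p = 0.0392). Its call was kept only without replicate 1 of the cells lacking BCR-ABL1 and was lost without any of the other 7 libraries (adjusted p 0.0510 to 0.137). Rasal1, a further RAS GTPase-activating protein that was picked out after its values were seen, averaged 3.33 ± 0.760 FPKM with BCR-ABL1 and 1.33 ± 0.587 FPKM without it (log2 change 0.91 ± 0.22, adjusted p = 0.0254). Its call was lost without replicates 0, 1 or 2 with BCR-ABL1 or replicates 0 or 2 without it (adjusted p 0.0515 to 0.0952).

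The gene of the interleukin-7 receptor had the smallest adjusted p of any gene named here. Il7r, the alpha chain that binds interleukin-7 (chromosome 15, 9506159 to 9529941, GRCm38), stood at 24.8, 21.9, 25.1 and 29.4 FPKM with BCR-ABL1 and at 5.30, 6.42, 6.31 and 7.13 FPKM without it. All 4 BCR-ABL1 libraries stood well above the 4 without it, and the means differed 4.02-fold (log2 change 1.85 ± 0.12, adjusted p = 1.11e-06). The rise held without each library. Across the list of interleukin-7 receptor, other cytokine receptor, JAK and STAT genes, 1 of 20 tested rose and 1 fell (2.73% and 1.7% of all genes did), with a median log2 change of 0.16. The one that fell was Jak1, the kinase bound to the alpha chain, at 22.5 ± 2.02 FPKM with BCR-ABL1 and 29.6 ± 2.57 FPKM without it (log2 change -0.38 ± 0.09, adjusted p = 0.0237). The call of Jak1 was lost without replicates 0, 1 or 2 with BCR-ABL1 or replicates 2 or 3 without it (adjusted p 0.0543 to 0.0890).

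None of the 13 tested STAT5 target genes was called by limma, where 4.43% of all genes were. Of the 13, 4 had an unadjusted p below 0.05 (18.9% of all genes did), and the median log2 change was 0.12. Pim1, a survival kinase, stood at 79.9, 98.4, 118 and 111 FPKM with BCR-ABL1 and at 61.5, 67.0, 74.5 and 85.3 FPKM without it, with overlapping groups (log2 change 0.49 ± 0.14, adjusted p = 0.0655). Pim1 was called without replicate 0 with BCR-ABL1 (adjusted p = 0.0368). Socs2, a suppressor of cytokine signalling, averaged 166 ± 28.1 FPKM with BCR-ABL1 and 132 ± 10.5 FPKM without it (adjusted p = 0.108). Cish, the classical STAT5 target, averaged 9.46 ± 2.32 FPKM with BCR-ABL1 and 10.4 ± 2.53 FPKM without it (adjusted p = 0.793). The window at the Il7r start held 1 match to the STAT letters, 142 bases before the start, shown in capitals below and chosen after the values were seen (chr15:9529827-9530126, minus strand).
Il7r: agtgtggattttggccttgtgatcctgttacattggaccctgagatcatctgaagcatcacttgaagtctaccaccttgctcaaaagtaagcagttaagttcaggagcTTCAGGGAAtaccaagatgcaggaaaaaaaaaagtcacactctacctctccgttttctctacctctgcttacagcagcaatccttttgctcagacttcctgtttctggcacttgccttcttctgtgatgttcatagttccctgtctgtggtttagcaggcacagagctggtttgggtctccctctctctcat
A match is a description and not a binding site, and 6.95% of the windows of tested genes held one.

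Receptors and surface proteins of B-cell precursors moved in both directions. Of 20 tested surface markers, 4 rose and 1 fell, which is 25.0% called against 4.43% of all genes, with a median log2 change of 0.24. Ly6d, a surface marker of the earliest B-lineage commitment, stood at 226, 217, 219 and 158 FPKM with BCR-ABL1 and at 61.9, 72.2, 40.6 and 39.9 FPKM without it (log2 change 1.95 ± 0.33, adjusted p = 0.00334). Replicate 3 with BCR-ABL1 lay below its group and above every library without it. Cxcr4, the chemokine receptor that holds B-cell precursors in the bone marrow, stood at 100, 90.2, 79.7 and 86.5 FPKM with BCR-ABL1 and at 66.7, 60.0, 50.2 and 51.2 FPKM without it (log2 change 0.64 ± 0.09, adjusted p = 0.000975). Itgal, the integrin alpha chain of LFA-1, fell to 0.579, 0.742, 0.747 and 0.880 FPKM with BCR-ABL1, against 2.12, 2.30, 2.59 and 2.74 FPKM without it (log2 change -0.98 ± 0.11, adjusted p = 8.99e-05, and -1.61 with 0.1 added), and it passed the filter through the libraries without BCR-ABL1 alone. These 3 calls held without each library. Cd24a, heat-stable antigen, averaged 1165 ± 136 FPKM with BCR-ABL1 and 830.6 ± 49.7 FPKM without it (adjusted p = 0.0254), and lost its call without replicates 0, 2 or 3 with BCR-ABL1 or replicates 1, 2 or 3 without it (adjusted p 0.0550 to 0.0979). Fcrla, an intracellular Fc receptor-like protein of B cells, averaged 8.26 ± 2.55 FPKM with BCR-ABL1 and 3.15 ± 1.34 FPKM without it (log2 change 1.18 ± 0.29, adjusted p = 0.0283), and lost its call without replicates 0 or 3 with BCR-ABL1 or replicates 2 or 3 without it (adjusted p 0.0690 to 0.108).

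The pre-B cell receptor itself differed little. Of 25 tested genes for the receptor and its adaptors, 2 were called (8.0%, against 4.43% of all genes), of which 1 is described here, and the median log2 change was 0.09. The surrogate light chain gene Igll1 averaged 626 ± 49.7 FPKM with BCR-ABL1 and 586 ± 27.2 FPKM without it (adjusted p = 0.711), and Vpreb1 averaged 466 ± 90.4 FPKM with BCR-ABL1 and 432 ± 20.7 FPKM without it (adjusted p = 0.827). Cd72, an inhibitory coreceptor of B cells, stood at 38.5, 35.6, 33.1 and 39.4 FPKM with BCR-ABL1 and at 24.7, 29.7, 16.1 and 18.8 FPKM without it (log2 change 0.73 ± 0.14, adjusted p = 0.00642), and the call held without each library. Among SRC family kinases and their regulators 2 of 12 were called, both higher, where 2.73% of all genes were higher. Sla, the adaptor SLAP that targets antigen receptors for degradation, averaged 25.0 ± 3.69 FPKM with BCR-ABL1 and 14.7 ± 1.39 FPKM without it (adjusted p = 0.0208), with the call lost without replicate 0 with BCR-ABL1 or replicates 2 or 3 without it (adjusted p 0.0525 to 0.0797). The phosphatase gene Ptpn22 averaged 3.95 ± 0.469 FPKM with BCR-ABL1 and 2.77 ± 0.365 FPKM without it (adjusted p = 0.0206), with the call lost without the same 3 libraries (adjusted p 0.0687 to 0.0782).

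Of 33 tested transcription factors of B-lineage and progenitor cells, 3 rose and 1 fell (2.73% and 1.7% of all genes did), and the median log2 change was 0.00067. The lineage factors Pax5 and Ebf1 were not among them. Pax5 averaged 64.3 ± 20.8 FPKM with BCR-ABL1 and 66.5 ± 11.4 FPKM without it (adjusted p = 0.917), and Ebf1 averaged 63.4 ± 8.43 FPKM with BCR-ABL1 and 60.0 ± 9.22 FPKM without it (adjusted p = 0.788). Sox4, which early B-cell precursors need to survive, stood at 26.9, 28.6, 30.2 and 26.6 FPKM with BCR-ABL1 and at 16.3, 20.2, 17.1 and 21.8 FPKM without it (log2 change 0.56 ± 0.10, adjusted p = 0.00386). Myb, a progenitor factor, stood at 127, 118, 114 and 128 FPKM with BCR-ABL1 and at 98.0, 94.8, 83.6 and 84.5 FPKM without it (log2 change 0.43 ± 0.09, adjusted p = 0.0107). Both calls held without each library, and that of Myb was lost under quantile normalization (adjusted p = 0.0554). Gfi1b, a repressor best known in red cell and platelet precursors, averaged 6.70 ± 0.648 FPKM with BCR-ABL1 and 3.53 ± 0.843 FPKM without it (adjusted p = 0.0195), and lost its call without replicate 2 with BCR-ABL1 or replicate 2 without it (adjusted p 0.0583 and 0.0756). Bcl11a, needed for the B lineage, averaged 11.6 ± 2.25 FPKM with BCR-ABL1 and 17.1 ± 2.92 FPKM without it (adjusted p = 0.0424), with overlapping groups. Its call was lost without replicates 0, 2 or 3 with BCR-ABL1, without replicates 0, 2 or 3 lacking it (adjusted p 0.0512 to 0.150), and without replicates 0 or 2 of the SHP2-null cells with BCR-ABL1, which share the fit (adjusted p 0.0553 and 0.0527). The recombinase genes were not called. Rag1 stood at 11.5, 10.6, 7.56 and 8.31 FPKM with BCR-ABL1 and at 3.02, 4.76, 2.50 and 8.05 FPKM without it (adjusted p = 0.241), replicate 3 without BCR-ABL1 reaching the other group. Rag1 was called without replicate 2 of the SHP2-null cells lacking BCR-ABL1 (adjusted p = 0.0260).

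**Figure D3:**
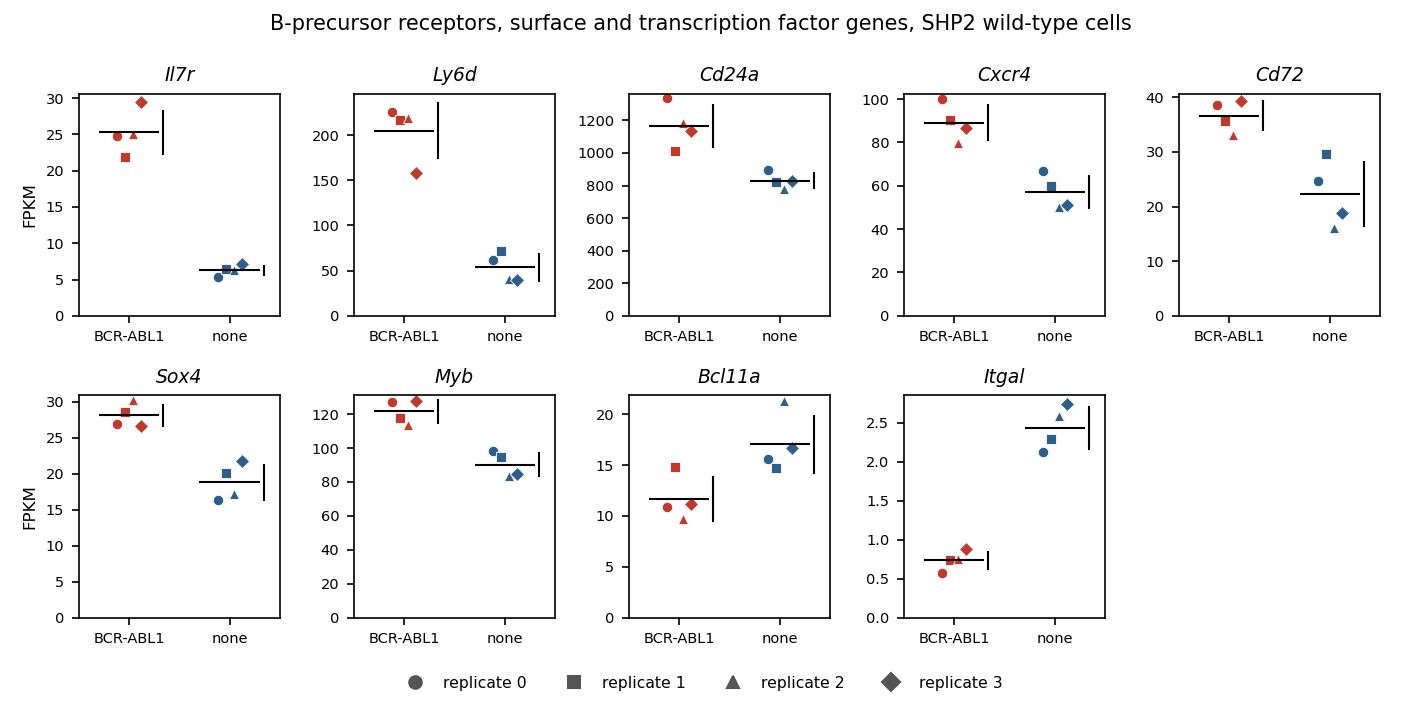
FPKM per library of Il7r and 8 genes for surface proteins and transcription factors of B-cell precursors, BCR-ABL1 (red, left) and none (blue, right), all SHP2 wild type; the marker shape is the replicate number, the horizontal line the mean and the vertical bar 1 SD (n = 4). Il7r and Ly6d are several-fold higher with BCR-ABL1, Itgal is lower, and in Bcl11a the groups overlap.

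Some MHC class I genes rose. The list of 44 class I and peptide-loading genes was put together after the values were seen, and 27 passed the filter. Of these, 11 rose (40.7%, where 2.73% of all genes did), 16 were not called and none fell, 26 had a positive log2 change (59.7% of all genes did), and the median log2 change was 0.46. H2-K1, which encodes a classical class I heavy chain, stood at 268, 284, 343 and 321 FPKM with BCR-ABL1 and at 164, 204, 178 and 194 FPKM without it (log2 change 0.71 ± 0.16, adjusted p = 0.0162). Its call was lost without replicate 2 with BCR-ABL1 or replicate 2 without it (adjusted p 0.0536 and 0.0539). The other classical heavy chain, H2-D1, averaged 271 FPKM with BCR-ABL1 and 187 FPKM without it, with groups that did not overlap and an adjusted p of 0.0555. H2-D1 was called without replicates 0 or 3 of the SHP2-null cells with BCR-ABL1 or replicate 2 of those lacking it, which share the fit (adjusted p 0.0275 to 0.0487). H2-Q9 stood at 4.02, 4.19, 5.35 and 5.98 FPKM with BCR-ABL1 and at 0.680, 1.20, 0.623 and 0.674 FPKM without it (log2 change 1.71 ± 0.18, adjusted p = 4.51e-05). H2-Q4, H2-Q5, H2-T9, H2-T10, H2-T23, H2-M3 and H2-K2 rose by log2 0.44 to 1.08. Tap1, the transporter that brings peptides to class I molecules, averaged 37.0 FPKM with BCR-ABL1 and 27.2 FPKM without it (log2 change 0.43 ± 0.07, adjusted p = 0.00336). Nlrc5, the transactivator of class I genes, stood at 25.7, 27.8, 26.7 and 28.0 FPKM with BCR-ABL1 and at 18.8, 20.1, 18.8 and 18.5 FPKM without it (log2 change 0.48 ± 0.06, adjusted p = 0.000263). Apart from H2-K1, these 10 calls held without each library. B2m, the shared light chain, averaged 1000.0 ± 155 FPKM with BCR-ABL1 and 713 ± 67.2 FPKM without it, with overlapping groups (adjusted p = 0.145). In SHP2-null cells the median log2 change of the list was 0.13. Class I genes are near-identical copies, and how the authors assigned shared reads is not stated, so the value of a single H2 gene is uncertain.

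Class II genes did not follow as a group. Of 10 tested, 1 rose (2.73% of all genes did), and 5 had a positive and 5 a negative change. The one that rose was H2-Ob, a chain of the peptide editor H2-O, at 30.2, 24.5, 20.1 and 20.7 FPKM with BCR-ABL1 and at 17.4, 13.5, 11.01 and 11.7 FPKM without it (log2 change 0.79 ± 0.16, adjusted p = 0.0107), a call that held without each library. Interferon-response genes were all on the positive side. Of 20 tested, 20 had a positive log2 change (59.7% of all genes did) with a median of 0.33, and 4 were called higher (2.73% of all genes were). The filter admitted 1 of the 20 through the BCR-ABL1 libraries alone. For the same genes the median log2 change in SHP2-null cells was 0.08. None of the 4 calls held without each library. Ifitm3, which blocks entry of viruses, stood at 24.4, 27.4, 38.1 and 38.8 FPKM with BCR-ABL1 and at 4.61, 9.84, 4.46 and 18.9 FPKM without it (log2 change 1.85 ± 0.40, adjusted p = 0.0152), and its call was lost without replicate 2 of the cells lacking BCR-ABL1 (adjusted p = 0.0630). Ifi27l2a averaged 29.9 ± 5.22 FPKM with BCR-ABL1 and 14.0 ± 5.67 FPKM without it (adjusted p = 0.0164), and lost its call without replicates 0 or 3 with BCR-ABL1 or replicate 2 without it (adjusted p 0.0525 to 0.0553). The interferon regulatory factor genes Irf1 and Irf9 had log2 changes of 0.41 (adjusted p = 0.0283) and 0.60 (adjusted p = 0.0320). The call of Irf1 was lost without each library other than replicate 0 with BCR-ABL1 (adjusted p 0.0505 to 0.0860), and that of Irf9 without replicates 0, 2 or 3 with BCR-ABL1 or replicates 1, 2 or 3 without it (adjusted p 0.0562 to 0.111).

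Proliferation genes showed small changes, few of them called. Of 40 DNA replication and E2F target genes, 35 had a positive log2 change (59.7% of all genes did) with a median of 0.10, and 1 was called (4.43% of all genes were), Cdc45, a helicase factor of replication (log2 change 0.22, adjusted p = 0.0455), whose call was kept only without replicate 1 with BCR-ABL1 and was lost without any of the other 7 libraries (adjusted p 0.0679 to 0.139). Of 28 mitosis and spindle genes, 24 had a positive change (59.7% of all genes did). None of the 28 was called by limma (4.43% of all genes were), and 6 had an unadjusted p below 0.05 (18.9% of all genes did). Of 16 cell cycle brakes tested, 4 were higher and none lower, where 2.73% of all genes were higher. Cdkn2d, the CDK4 and CDK6 inhibitor p19, stood at 16.4, 14.8, 14.8 and 16.0 FPKM with BCR-ABL1 and at 11.5, 10.9, 10.1 and 8.81 FPKM without it (log2 change 0.55 ± 0.08, adjusted p = 0.000975), and its call held without each library. The other 3, Cdkn1b, Ccng2 and Btg2, had adjusted p of 0.0424, 0.0455 and 0.0328. The call of Cdkn1b was lost without any 1 of the 8 libraries (adjusted p 0.0565 to 0.141), that of Ccng2 without any but replicate 0 of the cells lacking BCR-ABL1 (adjusted p 0.0568 to 0.156), and that of Btg2 without replicates 0, 1 or 3 with BCR-ABL1 or replicates 2 or 3 without it (adjusted p 0.0675 to 0.122). The SHP2-null libraries share the fit. Without single ones of them, calls were also lost for Cdc45 (replicates 0, 2 and 3 with BCR-ABL1, 0 and 1 lacking it, adjusted p 0.0567 to 0.0631), Ccng2 (all 4 with BCR-ABL1, 0 lacking it, adjusted p 0.0507 to 0.0600) and Cdkn1b (2 and 3 with BCR-ABL1, 1 lacking it, adjusted p 0.0538 to 0.0567).

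MYC and its targets were not called. Myc stood at 26.5, 46.9, 31.2 and 29.1 FPKM with BCR-ABL1 and at 35.2, 48.6, 32.8 and 46.0 FPKM without it, with overlapping groups (log2 change -0.29 ± 0.19, adjusted p = 0.462). None of 40 MYC target and ribosome biogenesis genes was called by limma, where 4.43% of all genes were. Of the 40, 2 had an unadjusted p below 0.05 (18.9% of all genes did), and the median log2 change was -0.07. Of 21 glycolysis genes none was called by limma (4.43% of all genes were), and 2 had an unadjusted p below 0.05 (18.9% of all genes did). Their changes were negative in 19 of 21 (40.3% of all genes did), with a median log2 change of -0.31. That median was -0.51 without replicate 2 with BCR-ABL1 and -0.10 without replicate 3 lacking it. In SHP2-null cells the median for the same genes was 0.38, and the difference between the medians was not tested. Hk2, hexokinase 2, averaged 8.33 ± 0.838 FPKM with BCR-ABL1 and 11.2 ± 1.76 FPKM without it (adjusted p = 0.0822), with groups that did not overlap, and Hk2 was called without replicate 2 of the SHP2-null cells with BCR-ABL1 (adjusted p = 0.0485).

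Genes of cell death and of the p53 response went both ways. Bok, a death effector of the BCL2 family, fell to 2.84, 2.52, 2.85 and 1.495 FPKM with BCR-ABL1, against 4.24, 4.83, 5.37 and 6.86 FPKM without it (log2 change -0.89 ± 0.15, adjusted p = 0.00218), and the call held without each library. Bmf, a BH3-only death activator, averaged 4.37 ± 1.35 FPKM with BCR-ABL1 and 1.57 ± 0.544 FPKM without it (log2 change 1.05 ± 0.25, adjusted p = 0.0235). Its call was lost without replicates 0 or 1 with BCR-ABL1 or replicates 2 or 3 without it (adjusted p 0.0569 to 0.0893). These were the 2 called of 15 BCL2 family genes tested, where 2.73% of all genes were higher and 1.7% lower. Of 21 p53 target genes, 3 were higher and 2 lower, again beside 2.73% and 1.7% of all genes, with a median log2 change of -0.07. Zmat3, an RNA-binding protein and p53 target, fell to 1.22, 1.76, 1.01 and 1.18 FPKM with BCR-ABL1, against 3.53, 3.60, 6.24 and 5.15 FPKM without it (log2 change -1.27 ± 0.18, adjusted p = 0.000709), and its call held without each library. The calls of the death receptor gene Fas, of Plk2, of Btg2 and of Phlda3 did not hold in that way. Fas, with a log2 change of 0.43, was lost without replicate 3 with BCR-ABL1 or replicates 1 or 3 without it (adjusted p 0.0606 to 0.0697). Plk2, at 0.53, was lost without replicates 0 or 3 with BCR-ABL1 or replicate 2 without it (adjusted p 0.0558 to 0.0718). Phlda3, at -0.51, was lost without replicates 0, 2 or 3 with BCR-ABL1 or replicates 2 or 3 without it (adjusted p 0.0552 to 0.0831).

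Beside Dusp6, Etv5, Il7r and Ly6d, the largest changes included genes outside the signalling lists. Cdh17, a cadherin found on B-cell precursors and in the intestine, stood at 0.593, 0.428, 0.740 and 0.957 FPKM with BCR-ABL1 and at 10.2, 9.87, 22.6 and 19.6 FPKM without it (log2 change -3.22 ± 0.37, adjusted p = 8.99e-05). Tmem119, a membrane protein best known from microglia and bone-forming cells, stood at 0.171, 0.221, 0.212 and 0.243 FPKM with BCR-ABL1 and at 5.0, 10.3, 12.9 and 14.3 FPKM without it (log2 change -3.18 ± 0.30, adjusted p = 2.21e-05, and -5.01 with 0.1 added instead of 1). Both genes stayed below 1 FPKM in every BCR-ABL1 library and, like Tmed6 and Mgll below, passed the filter through the libraries without BCR-ABL1 alone. Rnase12, a member of the ribonuclease A family, fell to 1.61, 1.78, 2.82 and 1.94 FPKM with BCR-ABL1, against 11.5, 7.74, 13.4 and 13.6 FPKM without it (log2 change -2.03 ± 0.17, adjusted p = 1.17e-05). Mgll, the lipase that breaks down monoacylglycerols, averaged 0.827 ± 0.129 FPKM with BCR-ABL1 and 5.46 ± 1.42 FPKM without it (log2 change -1.80 ± 0.19, adjusted p = 4.51e-05). Mc1r, the melanocortin 1 receptor, and Bfsp2, a lens filament protein, also fell, to 17.0% and 27.9% of the mean without BCR-ABL1. Tmed6 was listed at 0 in replicates 0 and 1 and at 0.0263 and 0.0287 FPKM in replicates 2 and 3 with BCR-ABL1, and averaged 2.85 ± 1.85 FPKM without it (adjusted p = 0.000235). Crip1, a LIM-domain protein picked out for its high level, fell to 153, 182, 276 and 273 FPKM with BCR-ABL1, against 409, 571, 720 and 800 FPKM without it (log2 change -1.50 ± 0.27, adjusted p = 0.00499). All of these calls held without each library.

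Igj, the joining chain of secreted immunoglobulin, fell to 0.913, 0.437, 0.800 and 0.855 FPKM with BCR-ABL1, against 3.84, 28.2, 2.23 and 5.09 FPKM without it (log2 change -2.06 ± 0.46, adjusted p = 0.0193). Replicate 1 without BCR-ABL1 stood far above the others, and the call held without it. In a fit of the 8 libraries alone the adjusted p was 0.0862. It passed the filter through the libraries without BCR-ABL1 alone, and was the 1 called of 6 tested markers of mature or activated B cells (4.43% of all genes were called).

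Among the largest rises, Gas7, an adaptor of the actin skeleton, stood at 7.12, 6.26, 6.95 and 8.98 FPKM with BCR-ABL1 and at 2.35, 1.98, 2.11 and 1.45 FPKM without it (log2 change 1.48 ± 0.14, adjusted p = 2.21e-05). Htra3, a secreted serine protease, stood at 2.52, 3.88, 10.03 and 7.86 FPKM with BCR-ABL1 and at 0.453, 0.791, 1.03 and 1.46 FPKM without it (log2 change 1.75 ± 0.31, adjusted p = 0.00358). Khdrbs3, a STAR-family RNA-binding protein, stood at 2.09, 1.77, 2.34 and 1.5 FPKM with BCR-ABL1 and at 0.0665, 0.353, 0.0667 and 0.261 FPKM without it (log2 change 1.30 ± 0.13, adjusted p = 3.18e-05, and 2.94 with 0.1 added). Nlrp6, an inflammasome sensor, averaged 2.3 ± 0.628 FPKM with BCR-ABL1 and 0.232 ± 0.120 FPKM without it (log2 change 1.41 ± 0.21, adjusted p = 0.000931, and 2.89 with 0.1 added). Serinc5, a membrane protein that restricts retroviruses, averaged 15.3 ± 4.96 FPKM with BCR-ABL1 and 5.40 ± 1.34 FPKM without it (log2 change 1.32 ± 0.27, adjusted p = 0.00965). Grtp1 averaged 4.07 ± 1.25 FPKM with BCR-ABL1 and 0.926 ± 0.375 FPKM without it (adjusted p = 0.0137, and 0.0810 with 0.1 added instead of 1). Cd28, the costimulatory receptor of T cells, picked out after its values were seen, stood at 1.93, 1.70, 1.24 and 1.35 FPKM with BCR-ABL1 and at 0.152, 0.338, 0.0928 and 0.367 FPKM without it (log2 change 1.04 ± 0.15, adjusted p = 0.000794, and 2.37 with 0.1 added). Those 7 calls held without each library, and Khdrbs3, Nlrp6 and Cd28 passed the filter through the BCR-ABL1 libraries alone. Of 15 T and NK cell markers, 14 stayed below 1 FPKM. Their means were higher with BCR-ABL1 in 10 and lower in 5, and a link to Cd28 was not tested. Stxbp6, a binding partner of SNARE proteins, averaged 4.16 ± 1.76 FPKM with BCR-ABL1 and 0.888 ± 0.810 FPKM without it (adjusted p = 0.0183), and lost its call without replicates 2 or 3 with BCR-ABL1 or replicate 2 without it (adjusted p 0.0529 to 0.0730).

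**Figure D4:**
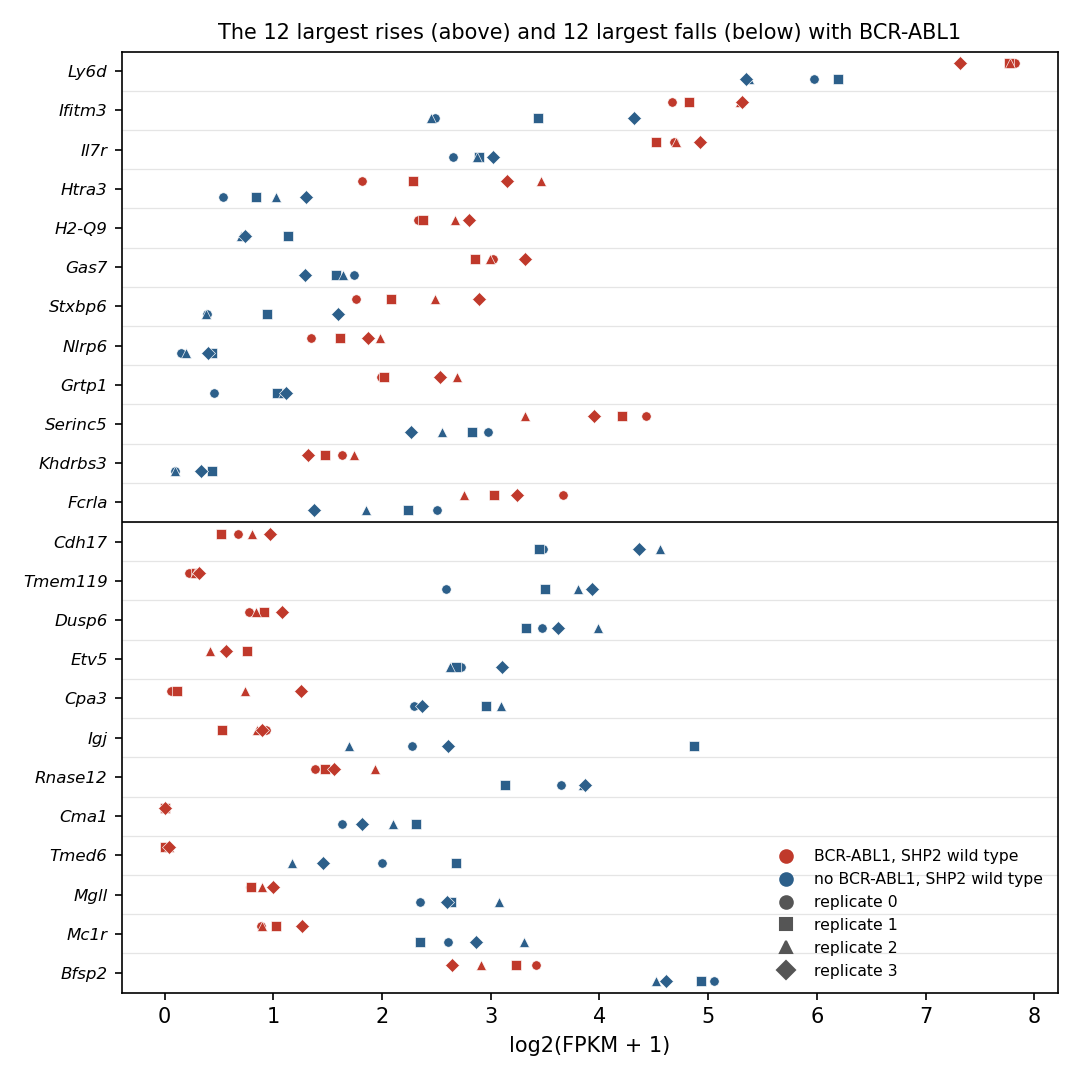
Log2(FPKM + 1) in each of the 8 libraries for the 12 called genes with the largest rise (above the line) and the 12 with the largest fall (below it) among those whose groups do not overlap; BCR-ABL1 in red above none in blue, marker shape the replicate number. The BCR-ABL1 libraries of Cma1 lie at 0, and replicate 1 without BCR-ABL1 stands apart in Igj.

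Of 12 listed mast cell and basophil genes, 2 passed the filter, and both fell with BCR-ABL1, where 1.7% of all genes did. Over the 12, means were lower with BCR-ABL1 in 7 and higher in 4. Cma1, a mast cell chymase, was listed at 0 in all 4 BCR-ABL1 libraries and at 2.10, 3.98, 3.29 and 2.52 FPKM in the libraries without it (adjusted p = 7.76e-05). Cpa3, mast cell carboxypeptidase, stood at 0.0401, 0.0781, 0.672 and 1.39 FPKM with BCR-ABL1 and at 3.90, 6.76, 7.54 and 4.16 FPKM without it (log2 change -2.14 ± 0.42, adjusted p = 0.00816, and -3.73 with 0.1 added). Both calls held without each library, and Cma1 passed the filter through the libraries without BCR-ABL1 alone. The other 10 listed genes did not pass the filter, and their values were not tested. Mcpt4 and Tpsb2, further mast cell proteases, were listed at 0 in all 4 BCR-ABL1 libraries, and at 0.161 to 0.336 and 0.478 to 0.992 FPKM without it. Prss34 and Mcpt8, proteases known from basophils, and Kit, the stem cell factor receptor of mast cells and progenitors, had the opposite order. Prss34 stood at 0.344, 0.249, 2.92 and 5.73 FPKM with BCR-ABL1 and was listed at 0 in all 4 libraries without it, and Mcpt8 stood at 0.360, 0.298, 1.47 and 3.66 FPKM with BCR-ABL1 and at 0.0855, 0.110, 0.226 and 0.0987 FPKM without it. Kit stood at 0.968, 1.24, 1.85 and 1.81 FPKM with BCR-ABL1 and at 0.460, 0.595, 0.415 and 0.803 FPKM without it. Replicates 2 and 3 with BCR-ABL1 were the high ones in all 3 genes, as they were in the summed myeloid markers. Tpsab1 was at 0 in all 8 libraries. The summed list came to 1.84, 1.96, 7.45 and 13.4 FPKM with BCR-ABL1 and to 8.34, 14.4, 14.1 and 9.95 FPKM without it, so the groups overlapped.

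The effect of BCR-ABL1 was also measured in the 8 SHP2-null libraries, which share no sample with the comparison above. There 120 genes were called (1.2% of the 9972), 54 higher and 66 lower, and 91 of them were among the 442. In some genes replicate 2 of the SHP2-null cells lacking BCR-ABL1 stood apart from its group. Over replicates 0 to 3 of that group, Lyz2 was at 6.08, 12.5, 403 and 34.3 FPKM and Rag1 at 3.50, 3.41, 25.0 and 4.45 FPKM. Without that library 601 genes were called in SHP2 wild-type cells instead of 442. No gene differed in its BCR-ABL1 effect between SHP2 wild-type and SHP2-null cells at an adjusted p below 0.05 in limma, the lowest adjusted p being 0.0923, and 576 genes (5.78%) had an unadjusted p below 0.05. In simulated data this test recovered 35.5% of genes whose effect differed by 0.5 on the log2 scale and 87.5% at 1. The changed genes were drawn from those of higher mean level, so genes near 1 FPKM were not covered. A lack of calls therefore does not show equal effects. The 272 genes called higher in SHP2 wild-type cells had a median log2 change of 0.46 there and of 0.23 in SHP2-null cells, where 263 were positive. The 170 called lower had a median of -0.58 in SHP2 wild-type cells and of -0.35 in SHP2-null cells, where 167 were negative. Over all genes 64.6% had the same sign in both. The genes were picked for their size in SHP2 wild-type cells, so a smaller median elsewhere is no sign of a weaker effect.

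Some named genes were called in both SHP2 wild-type and SHP2-null cells. Dusp6 had a log2 change of -1.65 ± 0.24 in SHP2-null cells (adjusted p = 0.00460), Mgll of -1.59 ± 0.19 (adjusted p = 0.00111), Crip1 of -1.38 ± 0.27 (adjusted p = 0.0207) and Il7r of 1.03 ± 0.12 (adjusted p = 0.00111). For other genes the estimates lay further apart, but none passed the test of the difference. Fam129c, a B-cell protein of the Niban family, averaged 22.96 ± 1.23 FPKM with BCR-ABL1 and 11.25 ± 1.03 FPKM without it in SHP2 wild-type cells (log2 change 0.97 ± 0.12, adjusted p = 0.000163). In SHP2-null cells it averaged 22.5 FPKM with BCR-ABL1 and 23.3 FPKM without it (log2 change -0.04 ± 0.12). Myh10, a non-muscle myosin heavy chain, averaged 65.2 ± 5.07 FPKM with BCR-ABL1 and 34.98 ± 3.38 FPKM without it in SHP2 wild-type cells (log2 change 0.88 ± 0.14), and 71.6 FPKM with BCR-ABL1 and 70.4 FPKM without it in SHP2-null cells (log2 change 0.06 ± 0.14). The test of the difference gave adjusted p of 0.0987 for Fam129c, 0.502 for Myh10 and 0.0923 for Rnase12, whose log2 change in SHP2-null cells was -0.46 ± 0.17. Fam129c and Myh10 were picked out after their values were seen.

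**Figure D5:**
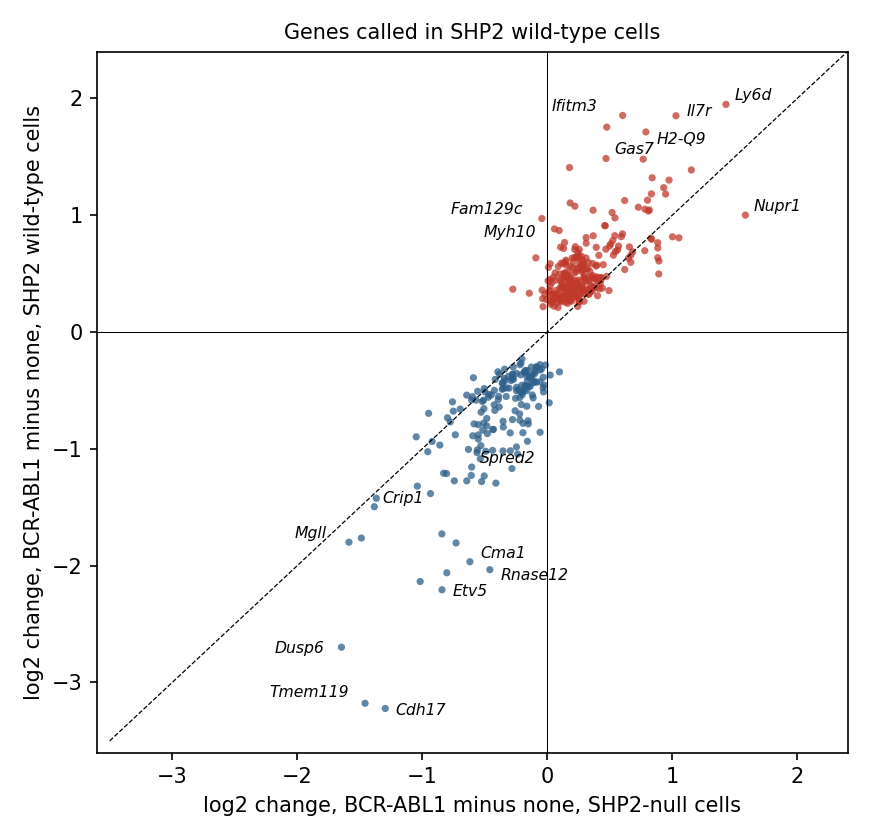
Log2 change with BCR-ABL1 (BCR-ABL1 minus none) in SHP2 wild-type cells (vertical) against that in SHP2-null cells (horizontal) for the 442 genes called in SHP2 wild-type cells, red where higher and blue where lower; the dashed line marks equal change. Most genes lie on the same side of 0 in both, and Fam129c and Myh10 lie near 0 in SHP2-null cells.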

How the data were processed

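Messenger RNA was sequenced in 16 samples with a stranded kit, and each sequencing set held 1 library of every group, per the labels' protocols, which do not tie libraries to sets. The authors deposited FPKM values by gene symbol for each library. Per the submitters' processing notes, Bowtie, Cufflinks and mm10 (GRCm38) were used. Tool versions, the annotation, strand settings and the treatment of multiply mapped reads are not stated in these sources. The values of the 16 library files equalled the series table of 23758 entries, in which 254 symbols recurred, and their 733 entries were summed by symbol.

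Genes that reached 1 FPKM in 4 or more of the 8 SHP2 wild-type libraries were fitted as log2(FPKM + 1) with limma (trended prior variance), with 4 group means over all 16 libraries so that the spread is shared. Two-sided p-values were adjusted by the Benjamini-Hochberg method over the 9972 genes, and a gene was called below 0.05. A comparison of genes below 0.05 FPKM gave a common ratio for 10.4% to 18.1% of 1400 to 1661 genes per pair of libraries (within 1%), too few to recover whole reads, so no count test was run and no interval for depth is given. Levels of Abl1, Bcr and Ptpn11 were compared by exact permutation. Tested on simulated data, the fit recovered 69% of 200 genes changed by 0.5 and 93.5% of 200 changed by 1 on the log2 scale. The changed genes were drawn from those of higher mean level and the noise independently for each library. Recovery of genes near 1 FPKM was therefore not measured.

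The members, the 32 gene lists and the named genes were chosen with earlier results of these data known. The rule named Abl1, Bcr, Ptpn11, Dusp6 and Myc, the 12 largest called rises and falls without overlap between groups (leaving out predicted and RIKEN genes, small RNAs and receptor segments), and called or smallest-p members of the lists. The choice of which to print, the list of MHC class I genes and genes so marked were made after their values were seen. Lists are given by counts and medians beside all genes tested, with no set test. The result for 1 gene is not reported here. Alternatives were the fit of the 8 libraries alone, the replicate number as a block, pseudocounts, filters, scalings, weights, the prior without trend, symbols listed more than once left out, and each library left out. The fits ran in limma 3.58.1 under R 4.3.3, and all else in Python 3.11.15 with pandas 2.3.3, numpy 2.4.6 and, for plots, matplotlib 3.10.9.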

Additional observations from a re-analysis of the deposited data

Results flagged for a closer look

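Single libraries that stood apart were looked for in 204 groups of 4 libraries, those of the genes named, by the gap of the highest or lowest library to its nearest neighbour over the range of its group, and 10 passed the 95% limit of Dixon's test. Chance passes about 1 in 20 groups. Among the libraries with BCR-ABL1, replicate 0 was high in Sla at 30.46 FPKM (the others 22.7 to 23.96). Replicate 3 was low in H2-T9 at 17.06 FPKM (the others 19.5 to 19.9) and in Ly6d at 158.4 FPKM (the others 217 to 226).

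Among the libraries without BCR-ABL1, replicate 1 was high in Igj at 28.19 FPKM (the others 2.23 to 5.09), in H2-Q9 at 1.198 FPKM (the others 0.623 to 0.680) and in Nlrc5 at 20.13 FPKM (the others 18.5 to 18.8). Replicate 2 was high in Irs2 at 2.103 FPKM (the others 1.16 to 1.32), and replicate 3 in Vpreb1 at 462.8 FPKM (the others 420.3 to 423). Replicate 0 was low in Mxd4 at 5.974 FPKM (the others 8.05 to 8.40) and in Grtp1 at 0.3683 FPKM (the others 1.05 to 1.17).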

How the results depend on the processing

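The count of 442 called genes became 1166 with the replicate number as a block in the fit of 16 libraries, 192 with a mean of at least 5 FPKM asked of each gene and 793 with array weights. The block in the 8 libraries gave 634 calls, with Nr4a1 no longer among them (adjusted p = 0.0561), and the fit of those libraries alone 331. Leaving out each of the 16 libraries in turn gave 216 to 601, the highest without replicate 2 of the SHP2-null cells lacking BCR-ABL1. The numbers were not taken as pairs, since the labels do not tie them to a shared source and not every same-number pair of libraries correlated above 0.1 in its deviations (0.649, 0.489, 0.340 and 0.058, all positive), and replicate 2 with BCR-ABL1 correlated best with replicate 3 without it (0.725). The interaction gave 3 calls with no filter, 1 under quantile normalization and 2 with array weights, and 0 to 1 on leaving out a library. Leaving out each of the 8 libraries gave Bcr differences of -2.62 to -1.65 FPKM, the first without replicate 1 with BCR-ABL1 (exact permutation p = 0.0286, 3 against 4 libraries), and Ptpn11 differences of -0.0652 to 0.697 FPKM, the first without replicate 3 with BCR-ABL1.

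Of 83 called genes named or considered, none changed direction, and 49 kept their call without each of the 8 libraries. Calls lost in the fit of 8 libraries included Spry2, Ptpn22, Irs2, Bcl11a, Cd24a, Lig4, Ifi27l2a, Btg2, Cdkn1b, Cdc45, Phlda3, Fas, Lamp1 and Igj. Of the 19 uncalled genes named or considered, 9 were called under some alternatives, 31 in all. These were 8 for H2-D1, 5 each for Pim1 and Slc2a3, 4 for Mxd4, 3 each for B2m and Hk2, and 1 each for Lyz2, Rag1 and Socs2. With the block in 16 libraries the adjusted p was 0.000703 for Pim1, 0.0288 for Socs2, 0.00343 for H2-D1, 0.00764 for B2m and 0.00967 for Mxd4, and for Lyz2 it was 0.0130 with the block in 8. Uncalled genes near 0 changed sign in log2 change. Ptpn11 stood at -0.0145 under median-ratio scaling, at -0.0117 under quantile normalization and at -0.0058 to 0.056 on leaving out a library. On leaving out a library, Cish ran from -0.2539 to 0.0268, Vpreb1 from -0.0024 to 0.2042 and Pax5 from -0.265 to 0.0531. The cause of these moves was not tested. The depth of the libraries is unknown and limits every value near 1 FPKM.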

Other observations

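Lysosome genes had positive log2 changes in 21 of 23 tested (59.7% of all genes did), with a median of 0.15, and 2 were called higher (2.73% of all genes were). Lamp1, a lysosomal membrane protein, averaged 81.6 ± 6.12 FPKM with BCR-ABL1 and 64.3 ± 3.82 FPKM without it (SD, n = 4 each; adjusted p = 0.0208), and its call was lost without replicates 2 or 3 with BCR-ABL1 or replicate 2 without it (adjusted p 0.0675 to 0.0806). Psap, the precursor of the saposins, averaged 149 ± 7.89 FPKM with BCR-ABL1 and 109 ± 4.91 FPKM without it (adjusted p = 0.0393), and its call was lost without any 1 of the 8 libraries (adjusted p 0.0660 to 0.101) or without replicate 2 of the SHP2-null cells with BCR-ABL1 (Psap adjusted p = 0.0525). Of 16 V(D)J recombination and joining genes 2 were called higher, where 2.73% of all genes were. Lig4, the ligase of end joining, averaged 9.94 ± 1.37 FPKM with BCR-ABL1 and 6.97 ± 1.18 FPKM without it (adjusted p = 0.0362), with overlapping groups, and lost its call without replicates 0, 1 or 3 with BCR-ABL1 or replicates 1, 2 or 3 without it (adjusted p 0.0567 to 0.111). Xrcc6, which encodes Ku70, averaged 79.8 ± 7.49 FPKM with BCR-ABL1 and 56.1 ± 2.37 FPKM without it (adjusted p = 0.0436), and kept its call only without replicate 1 with BCR-ABL1, losing it without any of the other 7 libraries (adjusted p 0.0716 to 0.112) or without replicates 0, 2 or 3 of the SHP2-null cells with BCR-ABL1, which share the fit (Xrcc6 adjusted p 0.0512 to 0.0536).

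Of 28 PI3K, AKT and FOXO genes, 1 was called, where 4.43% of all genes were. It passed the filter through the libraries without BCR-ABL1 alone. Irs2, an insulin receptor substrate, averaged 0.647 ± 0.157 FPKM with BCR-ABL1 and 1.44 ± 0.449 FPKM without it (adjusted p = 0.0187), and lost its call without replicates 0 or 2 with BCR-ABL1 or replicate 2 without it (adjusted p 0.0520 to 0.0705). Of 16 genes of the ATF4 and CHOP stress response, 1 was called (6.25%, against 4.43% of all genes). It was Nupr1, which passed the filter through the BCR-ABL1 libraries alone. Nupr1 averaged 2.17 ± 0.795 FPKM with BCR-ABL1 and 0.547 ± 0.106 FPKM without it (adjusted p = 0.0323). Its call was lost without replicates 0, 2 or 3 with BCR-ABL1 or replicates 1, 2 or 3 without it (adjusted p 0.0556 to 0.101). None of 23 cholesterol synthesis genes, 12 G1 cyclin and kinase genes or 11 genes of the MYC, MAX and MXD network was called by limma. Of all genes 4.43% were. In these lists 1, 1 and 3 genes had an unadjusted p below 0.05, as did 18.9% of all genes. Mxd4, an antagonist of MYC, averaged 11.4 ± 1.47 FPKM with BCR-ABL1 and 7.67 ± 1.14 FPKM without it (adjusted p = 0.0826). Of 14 listed stromal markers, 12 stayed below 1 FPKM in all 8 libraries. Means were higher with BCR-ABL1 in 3 of the 14 and lower in 9. Of the 2 tested, Pecam1, the adhesion molecule CD31, was called higher, where 2.73% of all genes were. Pecam1 averaged 12.9 ± 1.44 FPKM with BCR-ABL1 and 9.72 ± 0.393 FPKM without it (adjusted p = 0.0136). Its call was lost without replicate 2 lacking BCR-ABL1 (adjusted p = 0.0527). The macrophage and granulocyte gene Lyz2 averaged 4.27 ± 2.53 FPKM with BCR-ABL1 and 13.3 ± 10.4 FPKM without it, with overlapping groups (adjusted p = 0.482).

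The share of higher calls differed among chromosomes, which were looked at after the values were seen. On chromosome 17, which holds the H2 genes, 26 of 540 tested genes were higher (4.81%, against 2.73% of all genes) and 4 were lower. On chromosome X, 15 of 318 were higher (4.72%) and 2 were lower. On chromosome 18, 1 of 237 was higher and 5 were lower. The median log2 change was 0.07 on chromosome 17 and 0.01 on chromosome 18, a description with no test.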
